A study of Mus musculus with 2 samples.

Results

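The cells described here are 207 of 16453 droplets from P1 mouse back skin in which transcripts of 6 hair cortex and cuticle markers, Krt31, Krt32, Krt82, Krt86, Dsg4 and S100a3, outnumbered those of 4 medulla-type genes. They were selected on measured values. Droplets with 2000 to 60000 unique molecular identifiers (UMIs, 1 for each captured mRNA molecule), 1000 to 8000 genes and at most 20% mitochondrial UMIs were taken. Within each, A was the sum of UMIs of the 6 markers and B the sum for Krtap8-1, Krt90, Crtac1 and Mt4. Member cells had an A of at least 5, an A above B, and fewer than 20 UMIs per 10000 of the inner root sheath keratins Krt71, Krt25, Krt27 and Krt73. The rule kept 111 of 8661 droplets (1.28%, exact 95% binomial interval 1.06 to 1.54) in the library labelled WT and 96 of 7792 (1.23%, 0.999 to 1.502) in the library labelled PADI4 cKO (the cKO-labelled library). Of the 313 and 275 droplets with an A of at least 5, 189 and 170 were dropped because A did not exceed B, and 13 and 9 more by the limit on inner root sheath keratins.

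The study profiled sorted epithelial cells of developing hair follicles to ask what the loss of PADI4, an enzyme that converts peptidylarginine to citrulline, changes in them. Skin of K14-Cre mice carrying a tdTomato reporter was separated from its epidermis, the dermal fraction with the growing follicles was digested, and living tdTomato-positive cells were sorted into the Chromium 3′ v3.1 assay, which counts the 3′ ends of mRNAs. The second library came from K14-Cre Padi4 fl/fl mice, in which the keratin 14 promoter drives Cre in basal epithelial cells and so in their descendants in the follicle. The WT library came from the K14-Cre tdTomato line, and its genotype label reads WT with no Padi4 allele named. No treatment was used, and both libraries are labelled batch 1. The labels do not say how many animals entered each library or of which sex. There is 1 library per genotype, so no difference between genotypes can be tested, and all intervals given here are 95% intervals that cover counting error only.

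The hair shaft is built from an outer cuticle, a cortex and a central medulla. Matrix cells at the base of the follicle stop dividing as they leave the bulb, switch on shaft keratins and their partner keratin-associated proteins in an ordered sequence, cross-link them through disulfide bonds and die. Wnt signals acting through LEF1, the homeodomain factor HOXC13, and BMP and Notch signals are known to direct this program. Krt35 is among the earliest keratins of the shaft and is made in matrix, precortex and cuticle, whereas Krt31, Krt33a, Krt33b, Krt34 and Krt81 belong to the later cortex. Krt32 and Krt82 are cuticle keratins, Krt86 a cortex keratin, Dsg4 the desmosomal cadherin of the shaft, and S100a3 a cysteine-rich calcium-binding protein of the cuticle.

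Type I hair keratin genes lie together on chromosome 11 and type II genes on chromosome 15. In GRCm38.p6, Krt35 spans chr11:100092193-100096241 on the minus strand, between Krt32 and Krt36, and Krt86 spans chr15:101473478-101479986 on the plus strand. RefSeq promoters, 250 bases before to 50 after the start, were at hand for 4 hair keratin genes in the table used, and are printed to show which of them carry the letters that HOX and LEF factors are known to bind. Capitals mark TTTATNG, a posterior HOX type of motif, and CTTTG, the LEF/TCF core, each searched on both strands. The motifs do not overlap here.

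Krt31 promoter, chr11:100050502-100050801, minus strand: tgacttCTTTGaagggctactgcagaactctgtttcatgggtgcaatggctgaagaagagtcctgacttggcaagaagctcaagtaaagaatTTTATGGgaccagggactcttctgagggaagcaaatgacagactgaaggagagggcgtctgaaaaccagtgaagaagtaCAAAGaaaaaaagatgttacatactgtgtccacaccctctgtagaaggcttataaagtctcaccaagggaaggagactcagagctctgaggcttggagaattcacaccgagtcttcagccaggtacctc
Krt32 promoter, chr11:100088220-100088519, minus strand: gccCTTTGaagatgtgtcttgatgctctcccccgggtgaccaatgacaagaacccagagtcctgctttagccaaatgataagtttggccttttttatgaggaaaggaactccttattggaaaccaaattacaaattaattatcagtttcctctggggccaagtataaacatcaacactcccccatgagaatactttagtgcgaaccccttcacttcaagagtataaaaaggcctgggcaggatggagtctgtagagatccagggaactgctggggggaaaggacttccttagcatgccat
Krt36 promoter, chr11:100105577-100105876, minus strand: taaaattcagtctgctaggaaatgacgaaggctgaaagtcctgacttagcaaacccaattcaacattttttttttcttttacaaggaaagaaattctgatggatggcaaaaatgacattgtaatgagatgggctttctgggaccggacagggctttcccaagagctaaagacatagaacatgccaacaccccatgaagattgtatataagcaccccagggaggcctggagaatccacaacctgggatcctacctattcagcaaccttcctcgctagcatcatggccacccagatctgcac
Krt82 promoter, chr15:101550610-101550909, minus strand: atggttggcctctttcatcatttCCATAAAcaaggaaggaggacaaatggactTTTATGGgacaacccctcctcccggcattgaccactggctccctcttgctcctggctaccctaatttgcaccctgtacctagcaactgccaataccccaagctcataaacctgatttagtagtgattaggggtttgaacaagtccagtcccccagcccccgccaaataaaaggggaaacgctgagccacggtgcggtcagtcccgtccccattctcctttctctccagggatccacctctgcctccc

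The Krt31 window held TTTATNG with its first base 158 bases upstream of the start, and CTTTG 244 bases upstream on the gene's strand and 79 bases upstream on the opposite strand. The Krt32 window held CTTTG 247 bases upstream. The Krt82 window held TTTATNG 197 bases upstream on the same strand and 227 bases upstream on the opposite strand, and the Krt36 window held neither motif. Of 32851 RefSeq promoters of this length, 3584 (10.9%) held TTTATNG and 17718 (53.9%) held CTTTG, so the presence of either is a description of these windows only.

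Padi4, the targeted gene, did not set the libraries apart in these cells. Its mRNA gave 3 UMIs in the 111 WT cells and 4 in the 96 cells of the cKO-labelled library, which is 1.61 and 2.21 counts per 1000000 UMIs (CPM). Counts at the 3′ end of an mRNA do not show whether the floxed exons were removed, so the genotype label was not checked by these counts. Among the other deiminases, Padi3, which acts on trichohyalin and shaft proteins, gave 61 and 31 UMIs, Padi6 gave 2 and 0, and Padi1 and Padi2 gave 0 in both libraries. A count of 0 allows up to 1.61 CPM in the WT cells and 1.66 CPM in the others, taking 3 counts as the limit.

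The depth of the member cells was close to that of the rest. Their median was 14285 UMIs and 4127 genes in WT and 16995.5 UMIs and 4550.5 genes in the cKO-labelled library, against 14099.5 and 15723.5 UMIs in all other droplets. The libraries shared 17 cell barcodes among the filtered droplets and 1 among the members. Sex-linked RNA did differ between libraries. Xist UMIs without any of the Y-linked Uty, Eif2s3y, Kdm5d and Ddx3y were found in 40 WT members (36.0%) and in 95 members of the other library (98.96%), while 64 WT members (57.7%) and 0 of the others had Y-linked UMIs and no Xist. Scrublet, which scores droplets for likeness to simulated pairs of cells, called 6 WT members (5.41%) and 16 of the others (16.7%), against 3.90% and 3.97% of all droplets. Markers of fibroblasts and leukocytes were near 0, and those of pigment cells were not. The 6 melanocyte genes gave 18.3 CPM in WT and 37.6 CPM in the cKO-labelled library, against 56.7 and 34.2 CPM in other droplets. The 5 fibroblast genes together gave 3.22 and 2.76 CPM, the 4 leukocyte genes 4.30 and 6.08 CPM, all of it Cd52, and Ptprc, Tyrobp and Fcer1g were at 0.

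S100a3 gave the largest part of the UMIs in A. It gave 67.5% of A in WT and 71.0% in the cKO-labelled library, at 1036 CPM (990 to 1083) and 910 CPM (867 to 955). Without the member with the highest A in each library, its share was 52.4% and 66.5%. Of the 31-base words in the last 400 bases of S100a3 transcripts, 18.4% also occur in another gene, most often Gm42674. Dsg4 stood at 218 and 168 CPM, and Krt86 at 203 and 179 CPM. At least 1 UMI of all 3 was present in 74 WT members (66.7%, 57.1 to 75.3) and 57 of the other library (59.4%, 48.9 to 69.3). The remaining 3 markers contributed little. Krt32 was seen in 20 and 13 cells, with 1 or 2 UMIs in 18 and 11 of them, and in 3.49% and 3.47% of other droplets. Free RNA in droplets under 100 UMIs held 1.35 and 0.605 UMIs of the 6 markers per 10000. A droplet of free RNA alone, at the median depth of members, would hold 1.92 and 1.03 UMIs. That is an upper bound, as other filtered droplets held 0.329 and 0.302 per 10000. A single UMI of these genes is not read as expression in that cell, and shares of cells with at least 1 UMI describe detection only. Krt82 was seen in 1 cell of each library, with 49 and 2 UMIs, and Krt31 in 1 WT cell with 1 UMI.

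The cell with the highest A held 53.8% of the S100a3 UMIs in WT and 23.6% in the other library, and 71.0% and 62.8% of the Krt32 UMIs. The WT cell with the highest A held 1156 UMIs of the 6 markers in 45310 UMIs, of which 1037 were S100a3, 66 Krt32 and 49 Krt82, with 0 of Krt86. The cell with the highest A in the cKO-labelled library held 428, of which 389 were S100a3, 27 Krt32 and 2 Krt82. The next highest members held 93 and 142. Without these cells S100a3 stood at 490 CPM in WT and 702 CPM in the other library, so that the order of the libraries turned, and Krt32 at 14.9 and 8.94 CPM. Both cells also held Krt35 (123 and 102 UMIs) and Padi3 (24 and 6 UMIs). The WT cell held Mki67 and Top2a mRNA (22 and 30 UMIs), which mark dividing cells, whereas Mki67 was at 0 in the other.

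**Figure D1:**
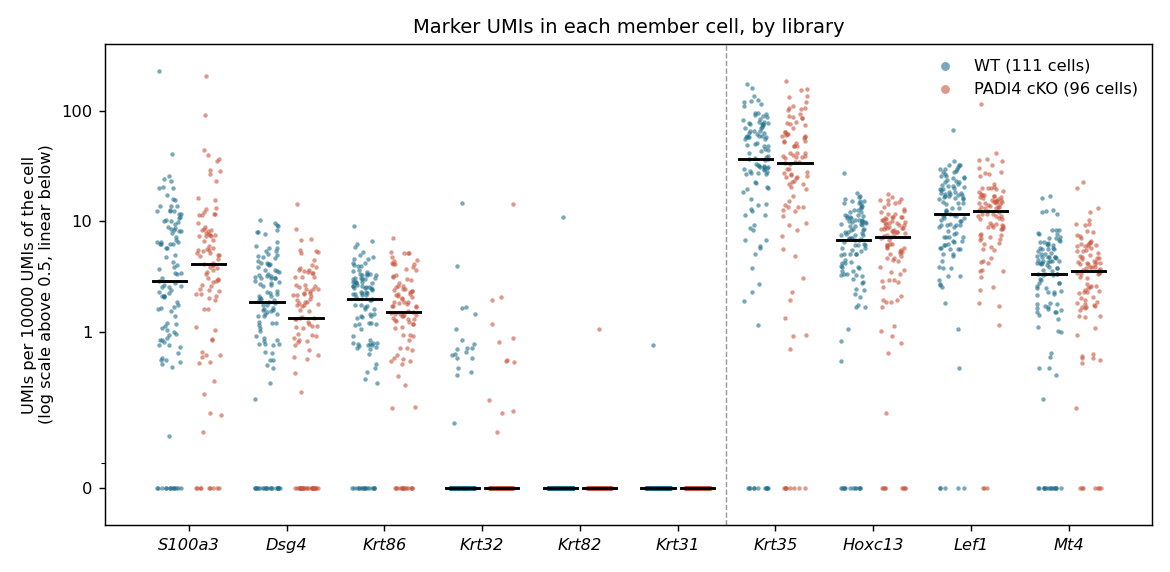
Each point is 1 member cell and the y axis gives UMIs of the gene per 10000 UMIs of that cell, on a scale that is logarithmic above 0.5 and linear below, with blue for the 111 WT cells, red for the 96 cells of the cKO-labelled library, and black bars at medians. Genes left of the dashed line formed A, and Krt31, Krt32 and Krt82 lie at 0 in most cells, whereas Krt35, which no part of the rule used, was detected in 90.1% and 91.7% of cells.

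The label of cortex and cuticle cells was only partly borne out. Krt35, which the rule did not use, stood at 4291 CPM (4198 to 4386) in WT and 3933 CPM (3842 to 4026) in the cKO-labelled library, against 130 and 119 CPM in all other droplets. It was present in 100 WT members (90.1%, 83.0 to 94.9) and 88 of the others (91.7%, 84.2 to 96.3), and in 17.9% and 16.9% of other droplets. With every cell thinned to 2000 UMIs these shares were 84.7% and 83.3% in members and 8.82% and 7.71% in the rest. Droplets led by collagen mRNA, which should lack the gene, had Krt35 in 6.25% (2 of 32) and 5.56% (1 of 18) before thinning, at median depths of 9369 and 11311 UMIs. Keratins of the later cortex were nearly absent. Krt33b and Krt34 gave 0 UMIs in both libraries, Krt33a gave 2 and 0, and Krt81 gave 1 in each. The 57 keratin-associated protein genes together gave 33.3 and 28.2 CPM, against 48.5 and 56.4 CPM in other droplets. They include Krtap8-1, a gene of B, so the lower sum is partly fixed by the rule. Of 4 with enough UMIs, Krtap3-3 was at least 2-fold higher in members, and Krtap17-1 and Krtap8-1 lower. In members, 48 of the 57 genes in WT and 50 in the cKO-labelled library gave 0 UMIs. The cells are therefore described by Krt35 and by the markers that gave most of A, S100a3, Dsg4 and Krt86, and not as mature cortex or cuticle. The rule selected on the last 3 genes, so their levels are no support for the label.

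Of the other hair keratins, Krt36, Krt83 and Krt87 were also at least 2-fold higher in members than in other droplets of both libraries. Krt36 gave 16.7 and 12.7 CPM against 0.339 and 0.184 CPM, and was found in 15.3% and 14.6% of members. Krt83 gave 17.7 and 24.9 CPM, and Krt87 64.5 and 49.8 CPM. The gene model Gm49425, at chr15:101515920-101517261 on the minus strand between Krt83 and Krt82, gave 1639 and 1575 CPM against 91.9 and 89.2 CPM. Of the 31-base words in the last 400 bases of its transcript, 67.6% also occur in another gene, most often Krt87, so the division of reads between these neighbours is uncertain.

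**Figure D2:**
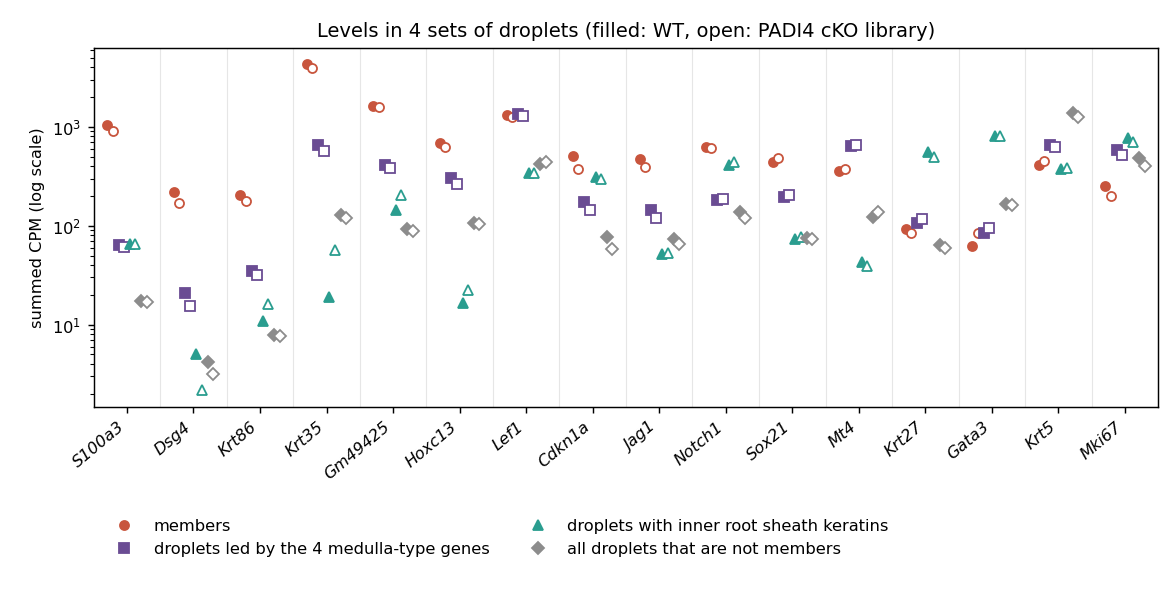
Summed CPM on a log scale for 16 genes in members, in droplets whose B was at least 5 and not below A, in droplets with at least 20 inner root sheath keratin UMIs per 10000, and in all droplets that are not members, which include the 2 sets before, with filled symbols for WT and open symbols for the cKO-labelled library. Krt35 lies at 4291 and 3933 CPM in members against 651 and 573 CPM in the droplets led by medulla-type genes, whereas Lef1 is at 1320 and 1261 CPM in members and at 1340 and 1286 CPM in those droplets.

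Beyond the keratins, shaft regulators, Notch genes and desmosomal genes were among those higher in members than in other droplets, and basal keratins among those lower. The desmosomal genes gave 3186 and 2822 CPM in members and 4716 and 4651 CPM in droplets with inner root sheath keratins, and the shaft factors gave 6135 and 6049 CPM in members and 5058 and 5313 CPM in droplets led by medulla-type genes. Levels were compared as log2 ratios of CPM summed over cells, in each library on its own, with 0.5 UMI added to each sum. Of 15117 genes with at least 100 UMIs, 766 (5.07%) were at least 2-fold higher in members in both libraries and 1458 (9.64%) at least 2-fold lower. The median over all of them was -0.10. Because the cells were chosen by their own transcripts, these counts are descriptions and not tests.

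Outside the rule, and among genes with at least 500 UMIs in members, the 15 with the highest ratios in both libraries were Krt35 (5.05 in both libraries, intervals 5.01 to 5.09), Gm49425, Dclk3, Myo5b, Cttnbp2, Hspa2, Rnaset2b, Rnaset2a, Kcnh1, Gpnmb, Unc5b, Stk17b, Spint1, Cdkn1a and Jag1. Dclk3, a doublecortin-like kinase, stood at 145 and 135 CPM against 8.40 and 8.38 CPM. Myo5b, an unconventional myosin of vesicle transport, stood at 238 and 285 CPM against 15.1 and 14.01 CPM. Spint1, an inhibitor of membrane serine proteases, stood at 324 and 346 CPM against 38.1 and 35.1 CPM. Rnaset2a and Rnaset2b are near copies, with 83.4% and 76.0% of their words found in another gene, most often each other, and are read as a pair. Gpnmb, a transmembrane glycoprotein also made by pigment cells, had 152 CPM in members of both libraries, while its level in other droplets was 15.4 CPM in WT and 7.41 CPM in the other library, where its ratios of 3.30 and 4.36 differ.

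**Figure D3:**
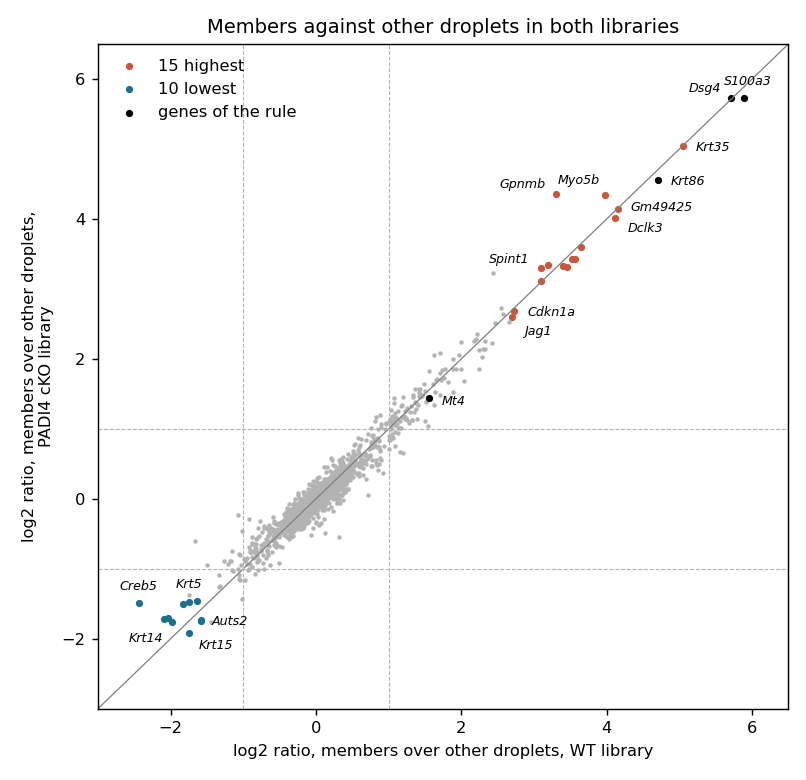
Each point is 1 gene with at least 500 UMIs in members, at its log2 ratio of CPM in members over all other droplets in the WT library (x axis) and in the cKO-labelled library (y axis), with the 15 highest genes in red, the 10 lowest in blue, genes of the rule in black and dashed lines at a 2-fold difference. Krt35 lies at 5.05 on both axes and Krt14 at -1.98 and -1.76, close to the diagonal, whereas Gpnmb and Creb5 lie above it.

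Of 21 transcription factors of the shaft and matrix, all with enough UMIs, 10 were at least 2-fold higher in members of both libraries and 2 lower, with a median of 1.04. Hoxc13, which switches on hair keratin genes, stood at 682 and 627 CPM against 106 and 104 CPM, with log2 ratios of 2.69 (2.61 to 2.77) and 2.59 (2.50 to 2.68). Lef1, the nuclear partner of beta-catenin, stood at 1320 and 1261 CPM against 422 and 437 CPM. Krt35, Hoxc13 and Lef1 were found together in 95 WT members (85.6%) and 85 of the others (88.5%). Trps1, a GATA-type repressor, had ratios of 2.04 and 1.69, Ovol1, a zinc finger factor of keratinocyte maturation, 2.29 and 2.14, and Foxn1, the factor lost in nude mice, 2.17 and 2.04. Msx1, Msx2, Dlx3, Grhl1 and Grhl3 were the other 5 on the higher side. Bcl11b (-1.84 and -1.46) and the vitamin D receptor gene Vdr (-1.26 and -1.197) were the 2 lower ones. Sox21, a factor of the hair cuticle that was no part of this list, stood at 437 and 488 CPM against 75.02 and 73.8 CPM.

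Genes of the Notch pathway were higher on the receptor and Jag1 side. Of 11 measured, Notch1, Notch3, Jag1 and Heyl were at least 2-fold higher and Jag2 and Lfng lower, with a median of 0.88. The receptor gene Notch1 stood at 630 and 606 CPM against 136 and 119 CPM. Jag1, which encodes a ligand, stood at 473 and 394 CPM against 73.2 and 65.1 CPM, with ratios of 2.69 (2.59 to 2.79) and 2.60 (2.49 to 2.71). Heyl, a target gene, gave 37.6 and 37.0 CPM against 4.89 and 5.63 CPM, while the targets Hes5, Hey1 and Hey2 gave at most 2 UMIs in either library.

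Wnt pathway genes went both ways, 5 of 18 higher and 5 lower, with a median of 0.31. The ligand genes Wnt10a (101 and 114 CPM against 23.5 and 22.7 CPM), Wnt10b and Wnt3 and the feedback inhibitors Nkd1 and Apcdd1 were on the higher side. The stem cell receptors Lgr5 and Lgr6, the repressive factor Tcf7l1, Tcf7l2 and the target Sp5 were on the lower side. Lgr5 stood at 33.9 and 59.2 CPM against 259 and 285 CPM. Of 16 BMP genes, Bmp8a, Id2 and Bambi were higher and 0 lower, with a median of 0.30. Bmp8a, a ligand gene, had 43.5 and 26.5 CPM against 1.27 and 1.16 CPM, with ratios of 5.10 (4.69 to 5.49) and 4.52 (4.01 to 4.99), and was found in 36.0% and 26.0% of members. Of 8 Hedgehog genes, 0 were higher and Gli2 and Hhip lower. Shh itself had ratios of -0.32 and -0.27, short of the 2-fold limit.

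Desmosomes anchor keratin filaments to the cell border. Of 15 genes other than Dsg4, 6 were at least 2-fold higher, Dsc2, Dsc3, Dsg1b, Dsp, Jup and Pkp2, and 0 lower, with a median of 0.86. Desmoplakin (Dsp) stood at 1073 and 899 CPM against 426 and 327 CPM, and Dsc3 at 561 and 473 CPM against 226 and 188 CPM. Plakophilin 2 (Pkp2) gave 31.2 and 34.8 CPM against 3.54 and 3.05 CPM, with ratios of 3.15 (2.72 to 3.53) and 3.52 (3.10 to 3.90). Among 18 genes of protein cross-linking and deimination, 9 had enough UMIs. Padi3, Padi4, Tgm3 and Selenbp1 were higher and Tgm5 and Sprr1a lower, but Padi4 and Tgm3 rest on 3 to 6 UMIs a library in members. Padi3 stood at 32.8 and 17.1 CPM against 4.37 and 3.05 CPM. Most genes of the epidermal envelope on this list, among them Casp14, Flg, Hrnr and Rptn, gave 0 UMIs.

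Summed levels of division genes were lower in members than in other droplets, while 2 of 22 S phase genes and 3 of 20 mitotic genes passed the limit, against 9.64% of all genes. The 22 S phase genes summed to 942 and 1381 CPM against 2098 and 2382 CPM, with a median ratio of -1.03 and Mcm6 and Uhrf1 past the limit. The 20 genes of G2 and mitosis summed to 1706 and 1505 CPM against 3192 and 2803 CPM, with a median of -0.95 and Cdk1, Ccnb2 and Birc5 past the limit. Cells with at least 20 S phase UMIs per 10000 made up 9.91% of WT members and 21.9% of the others, against 41.0% and 49.4% of other droplets. Of the D cyclins and inhibitors of cyclin-dependent kinases, Cdkn1a, which encodes p21, stood at 508 and 372 CPM against 76.7 and 57.7 CPM, and Cdkn2b, which encodes p15, at 27.4 and 31.5 CPM against 2.41 and 2.07 CPM. Both were at least 2-fold higher, and 0 of the 10 measured were lower.

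Most genes of metabolism, translation and stress lay within the 2-fold limit, which 5.07% of all genes passed on the higher and 9.64% on the lower side. Of 9 polyamine genes, Sat1, which acetylates spermidine and spermine, was higher at 1174 and 1169 CPM against 197 and 188 CPM, and Sms and Amd1 were lower. Of 17 genes of cysteine and disulfide metabolism, 0 were higher and Slc7a11, Cbs and Gclc were lower, with a median of -0.54. Of 13 glycolytic genes 0 were higher and 3 lower, with a median of -0.73. Together they gave 1204 and 1276 CPM against 2052 and 2018 CPM in other droplets. Of 20 ribosome biogenesis genes, 78 cytosolic ribosomal protein genes and 13 immediate early and stress genes, 0 lay past the limit in either direction.

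Markers of neighbouring follicle cells were present. All 7 outer root sheath and basal genes were at least 2-fold lower, with Krt14 at 306 and 240 CPM against 1206 and 815 CPM and Krt5 at 413 and 446 CPM against 1388 and 1245 CPM. The 7 genes together gave 1153 and 1059 CPM, and 892 and 396 CPM once the members called by Scrublet were left out. Their part in the results was not tested. The companion layer genes Krt75 and Krt6a together gave 95.7 and 44.8 CPM, against 43.4 and 35.4 CPM in other droplets. These sums rest on few cells. The median member held 0 of their UMIs per 10000 in both libraries, and the highest held 365 in WT and 25.5 in the other. Of the 2 genes, 0 were at least 2-fold higher, with a median ratio of -0.40. The 8 inner root sheath genes, of which the rule limits 4, summed to 869 and 801 CPM against 851 and 777 CPM in other droplets, while droplets led by inner root sheath keratins gave 10458 and 9073 CPM. Of 22 measured genes of inherited hair disorders, 11 were higher, among them Apcdd1, Dsc3, Hoxc13, Krt83, Padi3 and Wnt10a, and Krt71 and Edar were lower. That list includes 4 genes of the rule, Dsg4 and Krt86, which had to be high, and Krt71 and Krt25, which had to be low.

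Members were also set beside the 1097 and 1132 droplets led by Krtap8-1, Krt90, Crtac1 or Mt4, with a B of at least 5 and not below A. This comparison with medulla-type droplets was added after values had been seen. Of 11541 genes, 404 (3.50%) were at least 2-fold higher in members of both libraries and 271 (2.35%) lower. Krt35 was higher at 2.72 and 2.78 on the log2 scale and Hoxc13 at 1.18 and 1.23, whereas Lef1 levels were alike in CPM. Among genes with at least 200 UMIs in members, the ratio was highest for Fap, which encodes a membrane protease, at 94.1 and 66.3 CPM against 3.77 and 5.30 CPM, and for the sphingosine phosphate receptor gene S1pr3, at 67.7 and 58.1 CPM against 5.60 and 3.94 CPM. Chn2, Myo5b, Calml3, Dapl1, Lratd1, Plce1, Myh14 and Notch3 followed. Of 15 desmosomal genes 10 were higher, and Notch1, Notch3, Jag1 and Heyl were higher here too. Of 9 polyamine genes, Sat1 among them, 0 were at least 2-fold higher or lower. Of 18 Wnt genes Wnt10a and Wnt11 were higher and Wnt5a and Sp5 lower. Of 15 BMP genes Bmp8a was higher and Bmp2 lower. On the lower side were the metallothioneins Mt1 (758 and 614 CPM against 2326 and 2158 CPM) and Mt2 (394 and 370 CPM against 1671 and 1604 CPM), the proteoglycan gene Dcn (358 and 586 CPM against 1700 and 1991 CPM), Ccnd2 and Wnt5a. Of 20 mitotic genes 16 were lower, against 3 of 22 S phase genes. Mt4, which belongs to B, was still found in 96 WT members (86.5%) and 89 of the others (92.7%).

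Levels at the edges of the rule are given as a description. In WT, the 22 droplets with an A of 4 that otherwise met the rule had 1337 CPM of Krt35, the 12 members with an A of 5 had 1479 CPM, the 29 with 6 to 9 had 2594 CPM and the 70 with 10 or more had 5206 CPM. In the cKO-labelled library these values were 447 CPM (18 droplets), 514 CPM (9), 2145 CPM (27) and 5194 CPM (60). Gata3, a factor of the inner root sheath, went the other way, at 320, 204, 82.4 and 38.6 CPM in WT and 331, 184, 186 and 24.5 CPM in the other library. At the edge toward B, the 11 WT droplets with A equal to B had 5126 CPM of Krt35 and the 5 with A just 1 above B had 2827 CPM. The 5 and 11 such droplets of the other library had 3752 and 1928 CPM.

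To see how members varied among themselves, they were split into quartiles of A per 10000 UMIs, with cuts at 4.98, 8.23 and 13.3 over both libraries together. The bottom quartile held 24 WT and 28 other cells and the top one 27 and 25. Median depth was higher in the bottom quartile, at 18203 and 22330.5 UMIs, than in the top one, at 13859 and 15334 UMIs. This is partly built in, since with an A of at least 5 UMIs only a deep cell can have a low A per 10000. The quartiles therefore differ in depth as well as in A, and levels over them are a description. Scrublet called 5 WT and 7 other cells in the bottom quartile and 0 and 4 in the top one. Of 3809 genes with at least 100 UMIs over these quartiles, 73 (1.92%) were at least 2-fold higher in the top quartile of both libraries and 174 (4.57%) lower.

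Krt35 was higher in each successive quartile, from 1757 CPM in the bottom quartile through 3927 and 4730 to 7554 CPM in the top one in WT, and from 1347 through 4268 and 5331 to 6529 CPM in the cKO-labelled library. The ratios of top to bottom quartile were 2.10 (1.998 to 2.21) and 2.28 (2.17 to 2.39). Hoxc13 went from 333 to 973 CPM and from 263 to 920 CPM, with most of the step between the bottom and the second quartile. Dapl1, a death-associated protein gene of differentiating epithelium, went from 24.6 to 377 CPM and from 7.48 to 202 CPM. Plpp3, a lipid phosphatase gene, went from 47.3 to 432 CPM and from 41.9 to 411 CPM, most of it between the third and the top quartile. Rnaset2b, Rnaset2a, Chn2, Hspa2, Sod2 and Rora completed the 10 highest genes. Krt36 was at 0 UMIs in the bottom quartile of both libraries. Mt4, which had to stay below A, also went up, from 106 to 613 CPM and from 156 to 629 CPM.

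The lowest genes of the top quartile relative to the bottom one were Pola1, Gata3, Rad51b, Pclaf, Paqr5, Slco3a1, Pcna, Dut, Atad2 and Anxa2. Among them Pola1, Pclaf, Pcna and Dut are genes of DNA replication. Pola1, a subunit of DNA polymerase alpha, went from 174 to 12.0 CPM and from 207 to 14.4 CPM. All 14 measured S phase genes were at least 2-fold lower in the top quartile of both libraries, and the list summed to 1914 CPM in the bottom and 336 CPM in the top quartile in WT, and to 2564 and 502 CPM in the other library. Cells with at least 20 S phase UMIs per 10000 numbered 8 of 24 and 16 of 28 in the bottom quartile and 0 of 27 and 1 of 25 in the top one. Gata3 was found in 54.2% and 67.9% of bottom-quartile cells and in 11.1% and 8% of top-quartile cells. Cdkn1a was higher in the top quartile by 1.26 (0.97 to 1.57) and 1.47 (1.16 to 1.80). Mitotic genes depended on 1 cell. Of 16 measured, 6 were lower in the top quartile, and 14 without the member with the highest A in each library, of which the WT one held 243 of the mitotic UMIs of its quartile (49.7%).

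**Figure D4:**
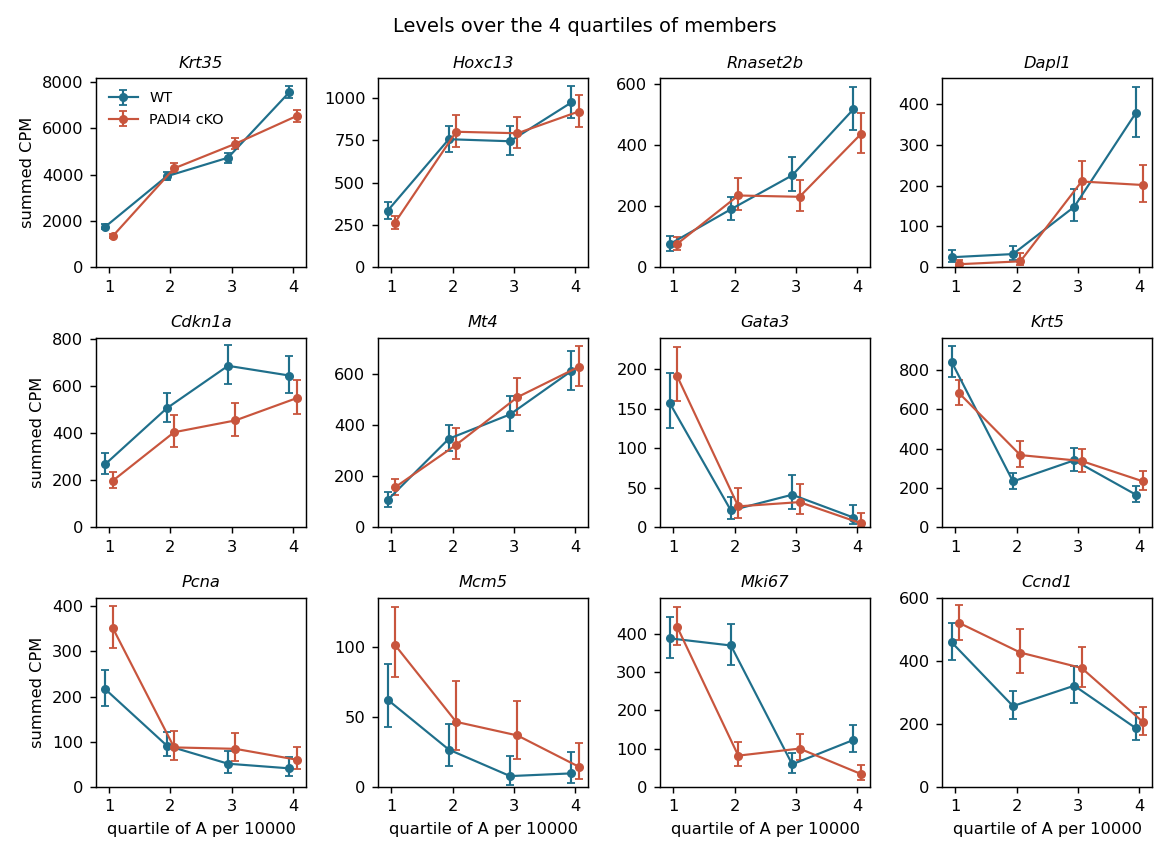
Summed CPM of 12 genes in the 4 quartiles of members by A per 10000 UMIs (x axis, lowest first), with exact 95% Poisson intervals for counting error, blue for WT and red for the cKO-labelled library. Krt35 goes from 1757 to 7554 CPM and from 1347 to 6529 CPM, whereas Gata3 goes from 157 to 12.0 CPM and from 192 to 4.80 CPM, and Mki67 in WT stays high in the second quartile.

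By keratins alone, few members were led by cuticle genes. At least 5 UMIs of Krt31, Krt32, Krt82 and Krt86 together were present in 37 WT members and 28 of the others. Of these, 34 and 27 had at least 2 times as many UMIs of Krt31 and Krt86 as of Krt32 and Krt82, and 2 and 1 had the opposite balance. Since Krt31 was nearly absent, the larger set was led by Krt86 alone. With 3 cells on the cuticle side, genes were not compared between the sets. The balance depended on S100a3, since counting it with Krt32 and Krt82 gave 50 cells led by these and 22 by Krt31 and Krt86 in WT, and 53 and 11 in the other library. Most members (92.8% and 91.7%) held at least 2 of the 6 markers, and S100a3 was the single marker in 5 and 8 cells.

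Between the libraries, most genes that define the members lay within 0.5 of each other over all members. Krt35 was lower in the cKO-labelled library by 0.13 on the log2 scale (-0.17 to -0.08), as it was in all other droplets (-0.12). Its direction was not the same in each quartile of A, at -0.38, 0.12, 0.17 and -0.21 from bottom to top. Outside the bottom quartile it was 0.04 (-0.01 to 0.09). The ratio was -0.18 for Krt86, -0.38 for Dsg4, where other droplets gave -0.39, and -0.19 for S100a3, which became 0.52 without the single highest cell of each library. In members with Xist and no Y-linked UMIs, 40 in WT and 95 in the other library, the ratios were -0.47 for Krt35, -0.58 (-0.86 to -0.30) for Krt86, -0.48 for Dsg4 and 0.55 for S100a3. Over all members Hoxc13 stood at -0.12 and Lef1 at -0.07. Of 5848 genes with at least 100 UMIs in members, 182 (3.11%) lay above 0.5 and 157 (2.68%) below -0.5, with a median of -0.01. Krt32, at -1.06 over all members, had 71.0% and 62.8% of its UMIs in the highest cell, and turned to 1.41 (0.19 to 3.22) in the Xist cells, on 5 and 43 UMIs.

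Of the 10 genes furthest on the higher side, Gm10260 (3.48), Xist (1.74) and Gm47283 (1.25) had like ratios in all other droplets (3.56, 1.90 and 1.21). Enox1, Tspan18, Timp3, Mthfd1l, Creb5, Eda and Rad51b made up the rest. Eda, the ectodysplasin ligand gene, stood at 200 CPM in WT and 407 CPM in the cKO-labelled library (1.02, 0.84 to 1.205), but the difference was largest in the bottom quartile (1.78), and the other 3 together gave 0.17. Timp3, an inhibitor of matrix proteases, stood at 67.7 and 148 CPM, and at 51.0 and 54.0 CPM without the members called by Scrublet. Creb5, which is low in members, stood at 105 and 215 CPM and at 64.0 and 88.0 CPM without them.

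On the lower side the 10 genes were Krt75, Atxn1, Ly6d, Kitl, Mgll, Hspa1a, Odc1, Klf6, Hspa1b and Mgst1. Kitl, the KIT ligand that guides melanocytes in the bulb, stood at 233 CPM in WT and 126 CPM in the cKO-labelled library (-0.89, -1.13 to -0.65), while other droplets had 188 and 185 CPM. Its ratio was negative in each quartile, between -1.61 and -0.41, and was -0.81 in cells with Xist and no Y-linked UMIs. Mgll, a lipase that cleaves monoacylglycerols, stood at 133 and 73.5 CPM (-0.86, other droplets -0.23), with -0.93 in the Xist cells. Odc1, which starts polyamine synthesis, stood at 321 and 196 CPM (-0.71, other droplets -0.23), with -0.87 in the Xist cells. In the third quartile the Odc1 ratio was 0.05 (-0.35 to 0.45). Klf6, an early response factor, stood at 148 and 90.7 CPM (-0.71) against 92.1 and 100 CPM in other droplets (0.12). Krt75, a companion layer keratin, had 41.9% of its WT UMIs in 1 cell and 82.7% in 1 cell of the other library. Outside the bottom quartile it gave 161 and 4 UMIs, a ratio of -4.94. Hspa1a came from the bottom quartile, with 142 and 18.0 CPM there.

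**Figure D5:**
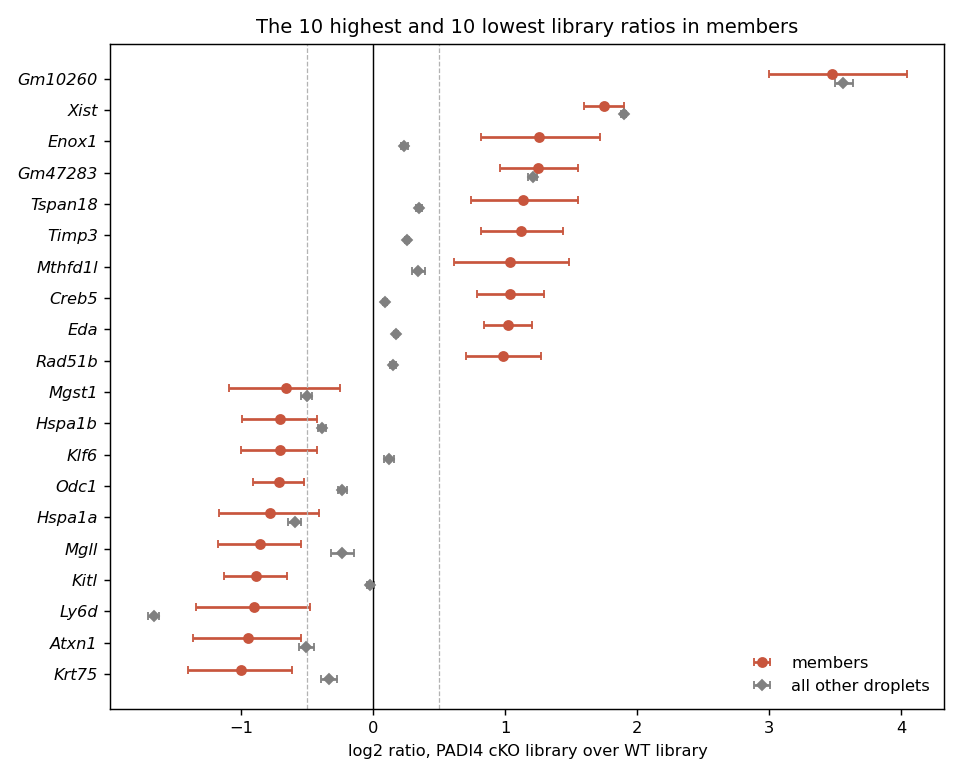
Log2 ratio of summed CPM, cKO-labelled library over WT (x axis), for the 10 highest and 10 lowest genes with at least 200 UMIs in members, in members (red) and in all other droplets (grey), with exact 95% intervals for counting error and dashed lines at -0.5 and 0.5. Gm10260, Xist and Gm47283 have like ratios in both sets, whereas Kitl lies at -0.89 in members and -0.02 in other droplets.

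Genes of S phase were higher as a group in the cKO-labelled library. Of 17 measured, 9 lay above 0.5 (Mcm2, Mcm3, Mcm4, Mcm5, Mcm6, Pcna, Gins2, Dtl and Hells) and 0 below. The summed level was 942 CPM in WT and 1381 CPM in the other library (0.55, 0.46 to 0.64), against a difference of 0.18 in other droplets, and was 0.67 in the Xist cells. By quartile of A it was 0.42, 0.10 (-0.12 to 0.32), 0.64 and 0.58. With an A of at least 10 only 1 of 7 measured S phase genes lay above 0.5, and outside the bottom quartile 0 of 5. The mitotic list did not follow, at 1706 and 1505 CPM (-0.18, other droplets -0.19). It stood at 2274 and 3212 CPM in the bottom quartile and at 1482 and 506 CPM outside it, where 11 WT cells and 3 of the others held at least 20 mitotic UMIs per 10000 and the medians were 1.72 and 1.65 per 10000.

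Most other lists held 0 or 1 gene past 0.5, and the Wnt and Hedgehog lists held more. Over all genes 3.11% lay above 0.5 and 2.68% below -0.5, so a count of 0 in a short list is a description only. Of the shaft transcription factors (14), the Notch genes (8), the desmosomal genes (12), the ribosome biogenesis genes (19) and the cap-dependent translation genes (14), 0 lay past 0.5 in either direction. Of 78 ribosomal protein genes 1 did, Rpl26. Of 16 Wnt genes Lgr5 and Lgr6 were above and Wnt5a and Axin2 below, of 6 Hedgehog genes Ptch1 and Gli2 were above, and of 15 BMP genes Bmp8a was below. Selenbp1, a selenium-binding protein gene of whose words 55.4% occur in another gene, most often Selenbp2, stood at 54.3 and 14.4 CPM (-1.90, -2.60 to -1.28), and at -1.11 in the Xist cells. Padi3 was lower at -0.92 (-1.61 to -0.29) on 61 and 31 UMIs, of which the cells with the highest A held 24 and 6. Without those cells the ratio was -0.54 (-1.34 to 0.23). In the Xist cells it was 0.49, so its direction depended on which WT cells were counted.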

How the data were processed

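The deposited matrices give, for each barcode, raw UMI counts by gene, made by the authors with Cell Ranger 7.1.0 per the file headers. The submitters' processing notes also name mm10 and Scanpy. The authors filtered with CellBender and corrected with Harmony, which were not run here, and whether intronic reads were counted is not given in the sources used here. The 32285 listed genes and 143938990 (WT) and 143945294 (PADI4 cKO) UMIs per library were read unnormalized.

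Members were found by the stated rule. Members, lists and settings were chosen with earlier results of these data known. UMIs were summed over cells per library and scaled to 1000000 (CPM), and log2 ratios were taken after adding 0.5 UMI, with exact conditional binomial intervals. Levels carry exact Poisson and shares exact binomial (Clopper-Pearson) intervals at 95%. Cells are not replicates and each genotype has 1 library, so no test was made. A gene counted as past the limit at a log2 size of at least 1 in both libraries, or 0.5 between libraries, and needed 100 UMIs over the sets compared. Thinning drew 2000 UMIs per cell. Genes named are those of the rule, the Padi genes, the 15 highest and 10 lowest against other droplets with 500 UMIs in members, the 10 at each end of the other comparisons with 200 UMIs, and genes of the lists with the highest levels or past the limit. The comparison with droplets led by medulla-type genes, its named genes and the settings without the highest cells or the bottom quartile were added after values had been seen, and Sox21, Selenbp1 and Krt36 in the quartiles were named after their values were seen. The list of glycolytic genes lost 1 gene listed under more than 1 identifier, and Krt85 was not analysed here.

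Doublets were scored with Scrublet in Scanpy 1.11.5 (Python 3.11.15) and kept. Its automatic threshold called 0.0115% of WT droplets and had not worked, so both libraries were scored at 0.1939, the value found in the cKO-labelled one. The code was tested on simulated data. Sequences and motif shares come from RefSeq tables for GRCm38.p6.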

Additional observations from a re-analysis of the deposited data

Results flagged for a closer look

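Differences of direction were found for 5 genes, and none of these differences was tested, since each genotype has 1 library. Klf6, an early response factor, had a library ratio (PADI4 cKO over WT, log2) of -0.71 in members and 0.12 in other droplets. Within members it was -0.75, -0.63, -0.08 (-0.71 to 0.54) and -1.27 from the bottom to the top quartile of A. Kitl, which encodes the KIT ligand, was above other droplets in WT members (0.31) and below them in members of the cKO-labelled library (-0.55). Between the bottom and top quartiles of A, the heat shock gene Hspa1a had a ratio of -0.79 in WT and 2.02 in the other library, the companion layer keratin gene Krt75 had 3.86 and -6.59, with 41.9% and 82.7% of its UMIs in 1 cell of each library, and Xist had 0.50 and -0.27.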

How the results depend on the processing

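With an A of at least 10 UMIs the rule kept 70 WT and 60 PADI4 cKO cells, without S100a3 in A it kept 56 and 38, and with an A of at least 5 per 10000 UMIs it kept 74 in the latter. Against other droplets, 479 genes were higher when 500 UMIs were required, and 957 were lower when both intervals had to exclude 0, a setting added after the data had been seen. Between the libraries, 13 genes were above 0.5 and 5 below with 500 UMIs required, 16 and 18 with cells thinned to 2000 UMIs, and 332 above in cells with Xist and no Y-linked UMIs. Between quartiles, 15 genes were higher and 19 lower with 500 UMIs required, and 5 and 12 after thinning. With 500 UMIs required or after thinning, fewer genes reached the minimum. Counting S100a3 with Krt32 and Krt82 gave 50 cells led by them and 22 by Krt31 and Krt86 in WT, and 53 and 11 in the other library, Krt82 against Krt31 gave 1 and 0, and 0 and 0, and thinning gave 0 for all. Library ratios turned for Krt75, to 1.14 with an A of at least 10, and for S100a3, to 0.52 without the highest cells. Without the bottom quartile they turned for Hspa1a, to 0.073, and for Krt35, to 0.041. In Xist cells they turned for Krt32 (1.41), Padi3 (0.49) and S100a3 (0.55). The cause was not tested. The gene comparison of keratin-led cells and its minimum of 500 UMIs were not run, with 3 cells on 1 side. No paired analysis was possible because each genotype has 1 library and no test was made. Depth limits genes under 100 UMIs, and the genotype, the animals and their sex cannot be told apart.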
